A study of Mus musculus with 10 samples.

Results

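The 9 genes *Pou5f1*, *Nanog*, *Klf4*, *Sall4*, *Prdm14*, *Esrrb*, *Tfcp2l1*, *Dppa4* and *Utf1* belong to the pluripotency network of the early mouse embryo and were followed here for histone 3 lysine 4 trimethylation (H3K4me3) in the oocyte. The members were all 5 kb windows that the deposited gene annotation column assigned to 1 of the 9 genes, 65 of 544879 windows. H3K4me3 had been mapped by ULI-nChIP-seq (a low-input method on uncrosslinked chromatin cut by micrococcal nuclease) in germinal vesicle (GV) oocytes, which are fully grown and still arrested before meiotic maturation. The comparison asks how the mark is distributed when SETD1B, one of the enzymes that trimethylate H3K4, is lost from the growing oocyte. By their labels, *Setd1b* cKO oocytes (N = 3, replicates 1, 3 and 4) were *Setd1b* floxed/floxed and Gdf9-Cre positive, and *Setd1b* WT oocytes (N = 3, replicates 1, 2 and 4) were *Setd1b* floxed/floxed and Gdf9-Cre negative. The study's methods also name Cre-positive females with a single conditional *Setd1b* allele as WT, so it is uncertain whether Cre was absent from every WT library. All females were 21-day-old mice of the strain labelled C57BL6 (C57BL/6OlaHsd in the methods), and each library came from a pool of approximately 200 oocytes. *Gdf9* is expressed in oocytes from the start of follicle growth, so the deletion leaves other cells of the ovary intact. Because oocytes were pooled, a lower level in every oocyte and fewer oocytes that carry the mark cannot be told apart.

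In the blastocyst and in embryonic stem cells, POU5F1 (OCT4), NANOG, KLF4, SALL4, ESRRB and TFCP2L1 are transcription factors that hold the undifferentiated state, PRDM14 represses differentiation signals and DNA methylation there and in primordial germ cells, and DPPA4 and UTF1 are chromatin proteins of the same cells. *Pou5f1* and *Sall4* are also transcribed by growing oocytes, whereas *Nanog* is silent in them. H3K4me3 is best known as a narrow mark of CpG-rich promoters, and in the mouse oocyte it also spreads over broad stretches outside promoters.

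Values are enrichment-normalized RPKM, a scale on which the authors set the same background and the same upper percentile in every library, so that a difference is a difference between genotypes in normalized RPKM and a level is per 5 kb window. The H3K4me3 libraries held 10856015 to 32775874 reads in windows, with WT replicate 4 and cKO replicate 4 the deepest, and 1 read was worth 0.0300 to 0.132 normalized RPKM. A window without reads had a value of −1.02 and −0.700 in cKO replicates 3 and 4 and of 0.785 in cKO replicate 1, against −0.0359 to 0.810 in WT. The TSS window of *Setd1b* had 4.36 normalized RPKM in cKO and 7.11 in WT (limma, adjusted p = 0.0332, edgeR 0.446), which is a level of the mark and does not check the deletion itself. The 8 oocyte markers tested at their TSS windows all had WT levels of 4.69 to 7.79, above the median of 2.41 over all 48576 TSS windows. Their summed level was 49.1 to 49.5 in WT and 44.1 to 47.5 in cKO, with a higher cKO mean at 3 markers and a lower one at 5. None of the 8 was called, where 1.53% of all TSS windows were. With limma's intensity trend *Gdf9* (adjusted p = 0.00026) and *Bmp15* (adjusted p = 0.0217) were called, where 3.78% of all TSS windows were. *Gdf9*, an oocyte growth factor, had 10.7 in cKO and 7.46 in WT (limma adjusted p = 0.0598) and was the 1 marker with all cKO above all WT (12.7% of all TSS windows). *Nlrp5* (4.93 against 6.86, limma adjusted p = 0.0522), *Bmp15* (5.32 against 7.79), *Oosp1* (4.95 against 6.68) and *Zp3* (3.79 against 4.69) had all cKO below all WT (9.38% of all TSS windows). The 8 granulosa cell markers, genes of the somatic cells around the oocyte, had a summed level of 27.2 to 29.3 in WT and 37.1 to 38.0 in cKO, and all 8 had a higher mean in cKO, where 49.3% of all TSS windows had. All cKO were above all WT at *Foxl2*, *Inha*, *Cyp19a1* and *Wt1*, 4 of the 8. *Foxl2* was called among them (7.06 against 4.21, limma adjusted p = 0.0415, edgeR 0.744), none of the 8 was without reads in any library, and *Fshr*, the follicle-stimulating hormone receptor, was lowest (0.870 in WT).

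Promoter sequences are shown for 4 of them because their TSS windows span the range from high to low H3K4me3 and from many to few CpGs. Each run is the 250 bases before a RefSeq start site on GRCm38.p6, read 5′ to 3′ on the strand of the gene, with CpG dinucleotides in capitals. They are *Pou5f1* (chr17:35505782-35506031, plus strand), *Nanog* (chr6:122707239-122707488, plus strand), *Klf4* (chr4:55532476-55532725, minus strand) and the first and second *Esrrb* promoters (chr12:86360867-86361116 and chr12:86421394-86421643, plus strand).
Pou5f1: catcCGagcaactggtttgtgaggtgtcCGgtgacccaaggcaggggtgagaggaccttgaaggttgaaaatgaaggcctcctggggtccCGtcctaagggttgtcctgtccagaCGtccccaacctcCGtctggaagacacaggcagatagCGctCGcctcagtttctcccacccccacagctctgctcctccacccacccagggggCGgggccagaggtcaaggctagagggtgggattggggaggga
Nanog: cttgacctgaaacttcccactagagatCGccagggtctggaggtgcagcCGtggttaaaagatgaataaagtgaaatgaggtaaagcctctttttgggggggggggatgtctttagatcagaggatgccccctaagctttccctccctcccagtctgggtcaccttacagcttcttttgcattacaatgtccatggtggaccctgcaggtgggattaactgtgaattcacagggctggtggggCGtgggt
Klf4: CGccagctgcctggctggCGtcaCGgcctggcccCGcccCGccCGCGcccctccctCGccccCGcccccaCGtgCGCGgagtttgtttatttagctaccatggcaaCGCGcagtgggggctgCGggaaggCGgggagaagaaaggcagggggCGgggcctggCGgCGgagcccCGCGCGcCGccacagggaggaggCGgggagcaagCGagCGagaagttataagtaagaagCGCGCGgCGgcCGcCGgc
Esrrb first promoter: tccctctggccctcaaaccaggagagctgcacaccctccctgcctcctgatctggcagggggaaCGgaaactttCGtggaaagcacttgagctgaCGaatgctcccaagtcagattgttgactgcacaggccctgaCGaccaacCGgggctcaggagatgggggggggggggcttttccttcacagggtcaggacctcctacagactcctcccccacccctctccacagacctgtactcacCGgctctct
Esrrb second promoter: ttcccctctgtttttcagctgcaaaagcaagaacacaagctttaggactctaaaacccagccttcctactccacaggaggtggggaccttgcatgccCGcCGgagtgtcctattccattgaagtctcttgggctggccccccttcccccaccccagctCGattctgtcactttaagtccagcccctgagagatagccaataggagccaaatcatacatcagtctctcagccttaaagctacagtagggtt
*Klf4* had 32 CpGs in these 250 bases, *Pou5f1* 8, the first *Esrrb* promoter 6, and *Nanog* and the second *Esrrb* promoter 3 each, against a median of 6 over 32851 RefSeq promoters of the same length. *Tfcp2l1* had 16 and *Utf1* 14. The letters GGGCGG, the GC box bound by SP family factors, were found on either strand in the printed *Pou5f1* and *Klf4* promoters and in that of *Utf1*, and in 32.7% of all promoters. They were not found in the 250 bases of *Nanog*, *Tfcp2l1* and both *Esrrb* promoters. *Sall4*, *Prdm14* and *Dppa4* were not matched in the sequence table.

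Among the 65 windows, 2 differed between the genotypes, and both were gains in the body of *Esrrb* (limma, adjusted p under 0.05). The study does not state whether its limma fit used an intensity trend, and this count is from the fit without it. With the trend, 8 of the 65 were called (3.58% of all windows), namely 7 gains in *Esrrb*, its TSS window included, and a loss at the *Sall4* TSS window. On log2 scales, with quantile normalization or with the value at 0 reads as a covariate, 0 of the 65 were called. The count was also 0 when any WT library was left out. Over all windows 1.02% were called (0.563% gains and 0.454% losses), and over the 225692 windows inside genes 1.26% were called (0.891% gains and 0.365% losses). The cKO mean was higher in 48 of the 65 windows and lower in 17, and every cKO library was above every WT library in 24 windows and below in 4. Inside genes, the corresponding background was 59.2% of windows with a higher cKO mean, 14.8% with all cKO above all WT and 6.64% with all cKO below all WT. Most of the higher windows were in *Esrrb*, which supplied 33 of the 65 windows and 21 of the 24 in which every cKO library was above every WT library. Without *Esrrb*, 32 windows were left, of which 0 were called (lowest adjusted p = 0.0698), 3 had all cKO above all WT, 3 had all cKO below all WT, and the median difference was 0.02. The median difference over the 65 windows was 0.55, against 0.13 in windows inside genes and −0.10 over all windows. At an unadjusted p under 0.05, limma found 24 of the 65 windows, 19 with more and 5 with less H3K4me3 in cKO, where windows inside genes had 10.4% and 5.19%.

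**Figure D1:**
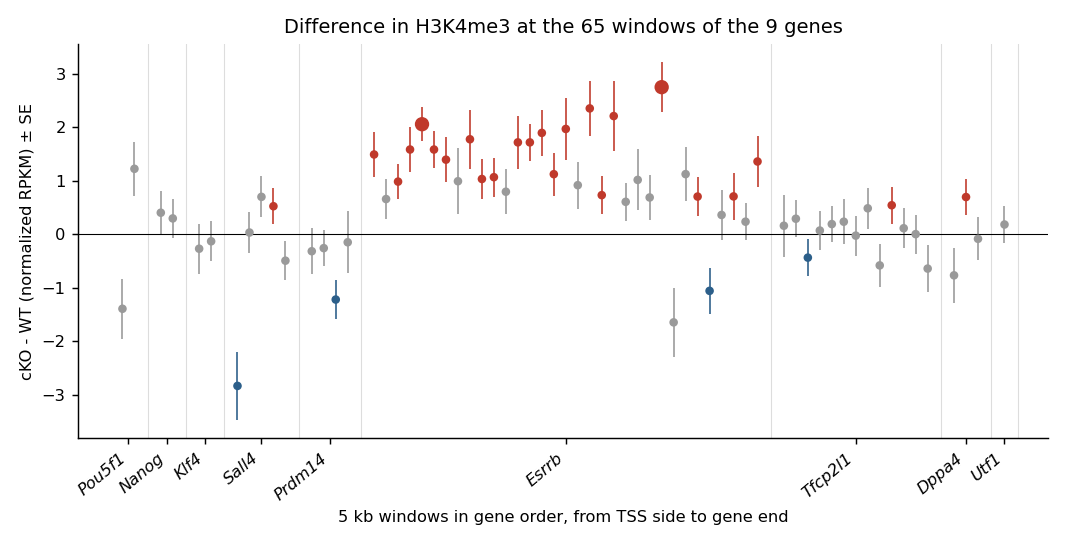
Difference in H3K4me3 (cKO minus WT, normalized RPKM, y axis) at each of the 65 windows in gene order (x axis), with error bars of 1 SE from limma and large points for the 2 called windows. Red and blue points mark windows in which all cKO libraries were above or below all WT libraries, and most of the red points are those of *Esrrb*.

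At the TSS windows, 6 of the 9 genes stood well above the median of all TSS windows in WT oocytes and 3 near or below it. In WT, *Sall4* was highest (9.16 ± 1.36 normalized RPKM, SD, n = 3), followed by *Pou5f1* (7.44 ± 0.598), whose library values reached those of *Sall4*. *Prdm14* came next (6.32 ± 0.291) and did not overlap with *Pou5f1*. The libraries of *Prdm14* and *Dppa4* (5.57 ± 0.750), of *Dppa4* and *Klf4* (5.36 ± 0.556), and of *Klf4* and *Tfcp2l1* (4.84 ± 1.31) overlapped. Differences between genes within a library were not tested. Below a gap came *Utf1* (2.49 ± 0.680) and *Nanog* (2.11 ± 0.363), which overlapped, and then *Esrrb* (1.26 ± 0.373), which did not overlap with *Nanog*. Among all TSS windows, the WT mean of *Sall4* stood at percentile 99.95, that of *Pou5f1* at 98.8, that of *Nanog* at 45.5 and that of *Esrrb* at 28.1. The order did not follow CpG number. The 5 kb TSS window of *Dppa4* held 62 CpGs and that of *Esrrb* 76, and *Utf1* held 175. In cKO, *Sall4*, *Pou5f1* and *Prdm14* had the 3 highest means, and *Nanog* had the lowest mean (2.52) under *Esrrb* (2.76), but the cKO libraries of the first 3 overlapped each other, as did those of *Nanog* and *Esrrb*. The TSS window of *Utf1* was assigned to its neighbour *Kndc1* in the deposited column, so it is given here beside the 65 windows and not among them.

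**Figure D2:**
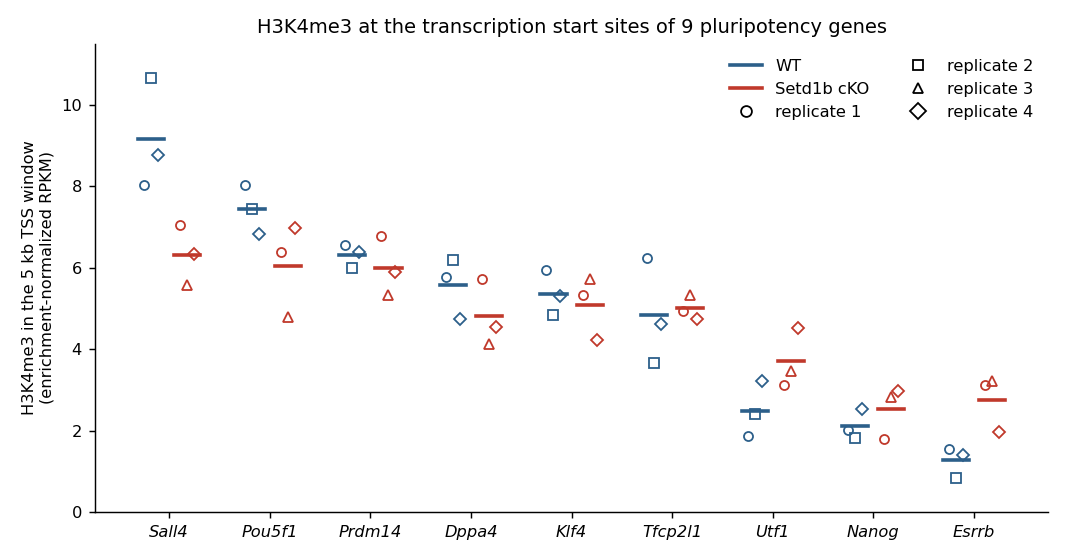
H3K4me3 (normalized RPKM, y axis) in the 5 kb TSS window of each gene (x axis), with open symbols for single libraries and bars for the means of 3 WT (blue) and 3 cKO (red) libraries. WT libraries ranged from 8.03 to 10.7 at *Sall4* and from 0.840 to 1.54 at *Esrrb*, and the genotypes did not overlap at these 2 genes.

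*Sall4*, a zinc finger factor that oocytes need and that partners with POU5F1 in stem cells, showed the widest TSS difference of the 9 genes. Its TSS window (chromosome 2, 168765001 to 168770000) had H3K4me3 levels of 7.05, 5.59 and 6.34 in cKO replicates 1, 3 and 4 and 8.03, 10.7 and 8.78 in WT replicates 1, 2 and 4. The cKO libraries all lay under the WT libraries, with cKO replicate 3 lowest and WT replicate 2 highest. The difference was −2.83 (SE 0.641, limma adjusted p = 0.0698), so it did not pass the test. It had an adjusted p of 0.00321 with limma's intensity trend and of 0.672 with edgeR's quasi-likelihood test on whole reads. Leaving out cKO replicate 1 gave −3.20 with a limma adjusted p of 0.0440, and over the 6 fits that each left out 1 library the limma adjusted p ranged from 0.0440 to 0.198. The same 5 kb also hold the TSS of *Gm14261*, so the mark cannot be given to 1 of the 2 starts. The summed level of the oocyte markers was also lower in every cKO library, although 3 of the 8 had a higher mean, and its part in the value of *Sall4* was not tested. The other 4 windows of *Sall4* had WT levels of 0.722 to 2.08 and differences of −0.49 to 0.70, so that the mark stood at the TSS alone within the gene. *Vrtn*, *Tfap2e* and *Oser1* were the 3 genes of 55345 whose TSS levels over the 6 libraries lay closest to those of *Sall4*, at Euclidean distances of 1.44, 1.60 and 1.66 normalized RPKM.

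*Pou5f1*, which encodes OCT4 and is the most widely used marker of the pluripotent state, had 6.39, 4.79 and 6.97 normalized RPKM in cKO and 8.03, 7.46 and 6.83 in WT at its TSS window (chromosome 17, 35505001 to 35510000). The genotypes overlapped, since cKO replicate 4 was above WT replicate 4, and the difference of −1.39 (SE 0.559) had a limma adjusted p of 0.275. Its second window (35510001 to 35515000), which covers the end of the gene and the TSS of *Gm19553* and overlaps *Tcf19*, had 1.28, 3.34 and 2.77 in cKO and 1.18, 1.52 and 1.02 in WT. There cKO replicate 1 lay within the WT range and the other 2 cKO libraries above it (difference 1.23, SE 0.506, limma adjusted p = 0.288). Leaving out 1 library gave 0.789 to 1.82, with limma adjusted p of 0.0396 (without cKO replicate 1) to 0.618. The 2 windows of 1 gene thus had differences of opposite sign.

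*Prdm14*, the germ cell and naive-state repressor, was the 1 gene of the 9 with a high level over its whole length. Its 4 windows had WT means of 6.0 to 6.97 normalized RPKM, and in the plot of the 8 shorter genes the plateau runs past both ends of the gene. The TSS window held 6.77, 5.32 and 5.91 in cKO and 6.56, 6.0 and 6.38 in WT, with the cKO libraries on both sides of WT (difference −0.31, SE 0.425, limma adjusted p = 0.720). Its window of lowest p (chromosome 1, 13115001 to 13120000) had 5.89, 5.98 and 5.38 in cKO and 6.72, 6.77 and 7.40 in WT. All cKO libraries were below all WT libraries there, and the difference of −1.22 (SE 0.364) had a limma adjusted p of 0.144.

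**Figure D3:**
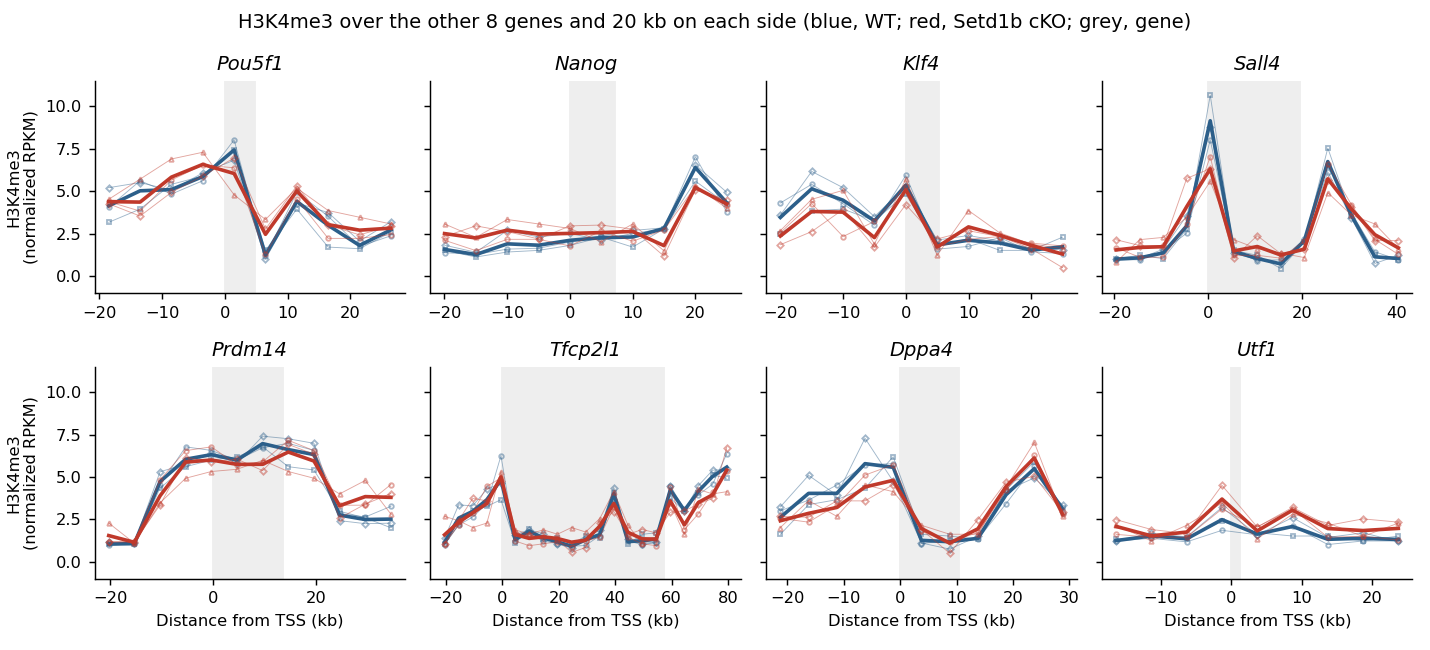
H3K4me3 (normalized RPKM, y axis) against the distance from the TSS in the direction of transcription (kb, x axis) for the 8 genes other than *Esrrb* with 20 kb on each side, where thin lines are libraries, thick lines means of WT (blue) and cKO (red), and grey the gene. *Sall4* has a single high TSS window, *Prdm14* a plateau of 6.0 to 6.97 in WT over all its windows, and *Nanog* 2.11 and 2.27 in its 2 windows.

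At *Dppa4*, *Klf4* and *Tfcp2l1* the TSS window was the highest of the gene in WT, and none of their windows was called. At the *Dppa4* TSS window the values were 5.72, 4.13 and 4.56 in cKO and 5.78, 6.19 and 4.74 in WT, which overlapped (difference −0.77, SE 0.512, limma adjusted p = 0.491). The next *Dppa4* window (48285001 to 48290000) had 1.84, 2.15 and 1.90 in cKO and 1.07, 1.62 and 1.11 in WT. Here every cKO library was above every WT library, and the difference of 0.70 (SE 0.340) had a limma adjusted p of 0.377. At *Klf4*, the factor added with OCT4, SOX2 and MYC to reprogram somatic cells, the TSS window held 315 CpGs and had 5.33, 5.72 and 4.22 in cKO and 5.94, 4.83 and 5.31 in WT (difference −0.27, SE 0.469, limma adjusted p = 0.790). *Tfcp2l1*, a naive-state factor downstream of LIF signalling, had 4.94, 5.32 and 4.75 in cKO and 6.25, 3.66 and 4.62 in WT (difference 0.16, SE 0.579, limma adjusted p = 0.905). At both genes the genotypes overlapped, and at *Tfcp2l1* all 3 cKO libraries lay between WT replicates 2 and 1. Its window of lowest p (118670001 to 118675000) had 1.45, 2.15 and 1.61 in cKO and 1.23, 1.03 and 1.32 in WT, all cKO above all WT (difference 0.55, SE 0.347, limma adjusted p = 0.491). In the other 12 windows of *Tfcp2l1* the differences ran from −0.64 to 0.55, and 2 of these windows, far from the TSS, had WT levels of 4.02 and 4.23, within the range of the WT libraries at the TSS window.

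*Nanog* and *Utf1* had WT levels near the median of all TSS windows. The *Nanog* TSS window (chromosome 6, 122705001 to 122710000) had 1.78, 2.81 and 2.96 in cKO and 2.01, 1.81 and 2.52 in WT, which overlapped (difference 0.41, SE 0.414, limma adjusted p = 0.622). Its second window differed by 0.30 (SE 0.368, limma adjusted p = 0.689). Both windows were close to the median of all TSS windows, without a peak at the TSS. At the TSS window of *Utf1* (chromosome 7, 139940001 to 139945000) the values were 3.11, 3.47 and 4.51 in cKO and 1.86, 2.40 and 3.21 in WT. WT replicate 4 lay just above cKO replicate 1, and the difference of 1.21 (SE 0.478) had a limma adjusted p of 0.265. The single *Utf1* window that follows the rule had 1.82 ± 0.401 in cKO and 1.63 ± 0.0714 in WT (SD, n = 3, limma adjusted p = 0.800).

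*Esrrb*, an orphan nuclear receptor that can stand in for NANOG in stem cells, was the longest of the 9 genes (chromosome 12, 86361117 to 86521628, plus strand, 161 kb), and 2 windows in its introns gained H3K4me3 in cKO. In WT the TSS window was the lowest of the 9 genes, levels stayed at or under 3.45 normalized RPKM up to the window centred 106 kb after the TSS, and further on they reached 7.93. The 2 called windows lay 21.4 and 121 kb after the TSS, counted to the window centre, and neither window held an annotated TSS.

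The first of them (86380001 to 86385000) had 3.78, 4.00 and 3.83 in cKO replicates 1, 3 and 4 (normalized RPKM) and 1.70, 1.81 and 1.92 in WT replicates 1, 2 and 4. The libraries of each genotype were close together and far from those of the other, and the difference was 2.06 (SE 0.321, limma adjusted p = 0.0275). These values stood on 54, 38 and 94 reads in cKO and 17, 19 and 54 reads in WT, and edgeR on the reads gave an adjusted p of 0.0489, or of 0.0910 with DESeq2 size factors. The second (86480001 to 86485000) had 4.89, 6.77 and 5.47 in cKO and 2.90, 2.88 and 3.09 in WT. Every cKO library was above every WT library, with cKO replicate 3 highest, and the difference was 2.75 (SE 0.473, limma adjusted p = 0.0344). With edgeR on the reads (74, 59 and 128 in cKO, 40, 30 and 93 in WT) the adjusted p of this window was 0.470. Its input level was 3.01 and 1.83 in the cKO inputs and 2.07 and 2.12 in the WT inputs, so that 1 cKO input was above the others. Leaving out 1 library at a time, the limma adjusted p ranged from 0.0250 to 0.123 for the first window and from 0.0197 to 0.127 for the second. The second kept an adjusted p under 0.05 without cKO replicate 1 or without cKO replicate 3, and the first only without cKO replicate 1.

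At the start of *Esrrb*, whose promoter is printed above, the TSS window (86360001 to 86365000) had 3.11, 3.21 and 1.95 in cKO and 1.54, 0.840 and 1.41 in WT. All cKO libraries were above all WT libraries, and cKO replicate 4 was the nearest to WT. The difference was 1.49 (SE 0.427) with a limma adjusted p of 0.128, which did not pass the test. Its adjusted p was 0.0287 with limma's intensity trend and 0.0165 with edgeR on the reads, of which there were 42, 32 and 55 in cKO and 14, 9 and 37 in WT. The window of the second *Esrrb* promoter (86420001 to 86425000) had 3.39, 5.45 and 4.12 in cKO and 2.64, 2.49 and 2.67 in WT. The genotypes did not overlap there either, and the difference of 1.72 (SE 0.494) had a limma adjusted p of 0.130 and an edgeR adjusted p of 0.599. Leaving out 1 library gave 1.16 to 2.19, with limma adjusted p of 0.0383 (without cKO replicate 1) to 0.321.

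Across the 33 windows of *Esrrb*, the cKO mean was higher in 31 and lower in 2, and all cKO libraries were above all WT libraries in 21 (63.6%, against 14.8% of windows inside genes) and below in 1. The first 25 windows in a row, 125 kb from 86360001 to 86485000, all had a higher cKO mean, with differences of 0.61 to 2.75 and a median of 1.40. In 18 of these 25 the genotypes did not overlap, and 17 had an unadjusted limma p under 0.05. On the reads, edgeR gave 2 of the 25 a log2 fold change just below 0, −0.01 in the window from 86470001 and −0.09 in that from 86475001. Over the 33 windows of the gene, the intensity trend called 7 gains and edgeR 5, where over windows inside genes these fits called gains in 2.48% and 1.57%. The mean over the 25 windows was 3.54, 4.11 and 3.82 in cKO replicates 1, 3 and 4 and 2.28, 2.30 and 2.65 in WT replicates 1, 2 and 4. Each cKO library was above each WT library on this mean. Its exact permutation p was not used, because the stretch was picked from the values. The inputs over the same stretch were 2.38 and 2.04 in cKO and 2.31 and 2.25 in WT, and did not separate the genotypes.

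Taken singly, cKO replicates 1, 3 and 4 were above every WT library in 22, 23 and 22 of these 25 windows, a description of the stretch as picked. Over all windows the shares were 27.4%, 32.1% and 28.6%. In the pair with the most similar value at 0 reads, cKO replicate 1 (0.785) and WT replicate 1 (0.810), cKO was above WT in 30 of the 33 windows. The share was 46.9% of all windows and was not counted inside genes, where higher cKO means were more frequent (59.2% against 43.7% of all windows). With the value at 0 reads as a covariate, the 2 called windows had limma adjusted p of 0.181 and 0.302. The 2 windows with a lower cKO mean were the 2 highest of the gene in WT. The window at 126 kb (86485001 to 86490000) directly follows the second called gain and had 5.83, 7.70 and 5.33 in cKO and 8.87, 7.94 and 6.98 in WT (difference −1.64, SE 0.648, limma adjusted p = 0.265), with overlap. The window at 141 kb (86500001 to 86505000) had 6.22, 6.91 and 5.38 in cKO and 7.51, 6.97 and 7.19 in WT, all cKO below all WT (difference −1.06, SE 0.431, limma adjusted p = 0.283). Along the gene, the cKO and WT means had a Pearson correlation of 0.873 over the 33 windows, which share libraries and base composition. CpG number of a window and its difference had a correlation of 0.208 over the same 33 windows.

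**Figure D4:**
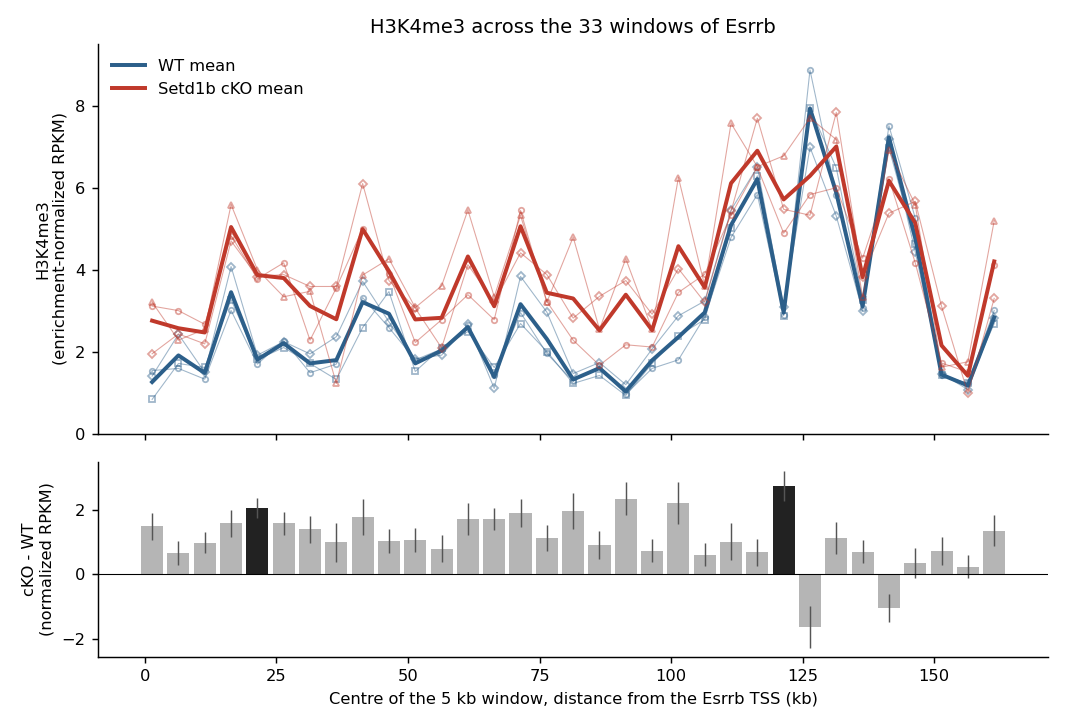
Top, H3K4me3 (normalized RPKM, y axis) in the 33 windows of *Esrrb* against the distance of the window centre from the TSS (kb, x axis), with thin lines for libraries and thick lines for the means of WT (blue) and cKO (red). Bottom, the difference (cKO minus WT, normalized RPKM) with 1 SE and black bars for the 2 called windows, in which the first 25 bars are all above 0 and the bars at 126 and 141 kb are below it.

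*Esrrb* was not alone in this among long genes. Of the 2585 genes with at least 20 windows, 42 others had a median difference at least as high as that of *Esrrb*, and 225 (8.70%) had at least 2 called gains. The median over these genes of the median difference was 0.17. The summed level of the granulosa cell markers was also higher in every cKO library, as given above, and its part in the values of *Esrrb* was not tested. AC122818.4, Gm48601 and Gm7423 had the TSS levels closest to those of *Esrrb* over the 6 libraries, at Euclidean distances of 0.410, 0.571 and 0.608 normalized RPKM.

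Averaged over all windows of a gene, the level of *Esrrb* was 3.99 ± 0.299 in cKO and 2.87 ± 0.103 in WT (SD, n = 3, difference 1.12), and the genotypes did not overlap. The mean over the 5 windows of *Sall4* was 2.53, 2.36 and 2.55 in cKO and 2.71, 3.17 and 2.79 in WT, again without overlap. The exact permutation test over samples (two-sided) gave p = 0.1 for both, the smallest p that 3 against 3 libraries allow, and p = 0.2 to 0.9 for the other 7 genes. The lower mean of *Sall4* was set by its TSS window and turned to 0.01 on a log2(value + 1) scale, on which low windows weigh more. Input levels in the 65 windows ranged from 0.895 to 3.55 RPM per window over the 4 input libraries.

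The other genes of the network were read at their TSS windows from a list of 39 factors, signals and regulators of the naive and primed states. None of the 39 was called by limma, where 1.53% of all TSS windows were (0.896% gains and 0.638% losses). At an unadjusted p under 0.05 there were 10 with more and 1 with less H3K4me3 in cKO (10.8% and 8.86% of all TSS windows), and edgeR called 0 of the 39, against 1.85% of TSS windows. The cKO mean was higher at 25 genes and lower at 14, where 49.3% of all TSS windows had a higher cKO mean. All cKO libraries were above all WT libraries at 9 genes and below at 1, against 12.7% and 9.38% of all TSS windows. The median difference was 0.31, against −0.01 over all TSS windows, and the range was −1.46 to 2.02.

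Of these, *Lefty1*, a secreted inhibitor of NODAL signalling, had the lowest p. Its TSS window had 3.50, 2.95 and 3.16 normalized RPKM in cKO and 1.96, 1.72 and 1.77 in WT (difference 1.39, SE 0.335, limma adjusted p = 0.0825). *Tet1*, the 5-methylcytosine oxidase of stem cells, had 2.95, 4.27 and 4.56 in cKO and 2.28, 1.23 and 2.22 in WT (difference 2.02, SE 0.491, limma adjusted p = 0.0842). *Myc*, the growth-promoting factor, was already high in WT and had 8.49, 8.49 and 7.98 in cKO and 6.36, 6.77 and 7.43 in WT (difference 1.47, SE 0.387, limma adjusted p = 0.104). At all 3 genes every cKO library was above every WT library, and none passed the test. With limma's intensity trend *Tet1* had an adjusted p of 0.0308, and without cKO replicate 1 of 0.0273, but it was not called without any other library, and edgeR gave 0.208, or 0.301 with DESeq2 size factors.

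**Figure D5:**
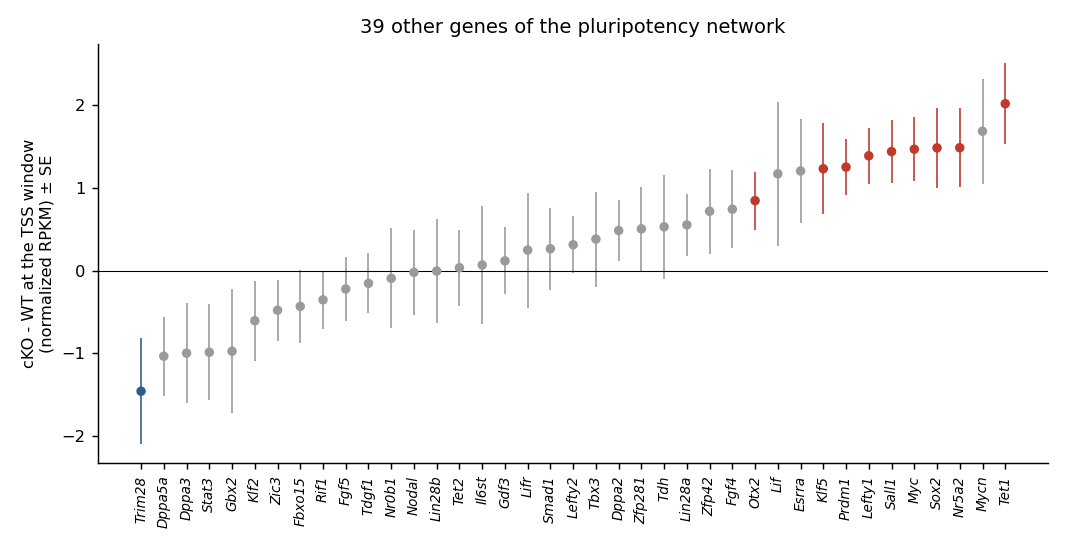
Difference in H3K4me3 at the TSS window (cKO minus WT, normalized RPKM, y axis) for the 39 other network genes ordered by size (x axis), with error bars of 1 SE from limma. Red marks the 9 genes with all cKO libraries above all WT libraries and blue the 1 gene with all below, and differences run from −1.46 to 2.02.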

How the data were processed

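H3K4me3 ULI-nChIP-seq was analysed in GV oocytes of both genotypes (3 libraries each, with 2 inputs each). Per the methods of the authors and their processing notes, reads were trimmed (Trim Galore 0.4.2), mapped to GRCm38 (Bowtie2 2.2.9) and quantified in 5 kb windows in SeqMonk, and 1 poorly enriched replicate per genotype was excluded. The authors deposited H3K4me3 as a score, the enrichment-normalized RPKM, equal in all libraries at the 40th percentile (1.23) and 99th percentile (6.77). The authors deposited input as a signal, reads per window scaled to library size (RPM). All deposited values were whole numbers of reads (100%, tolerance 0.05 read) after the value at 0 reads was taken off, which gave the reads per window. Duplicates could not be told from independent fragments.

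Over all 544879 windows, deposited values were compared by limma 3.58.1 (R 4.3.3) with a two-sided moderated test and no replicate block, trend or filter, and p-values were adjusted by Benjamini-Hochberg over these windows (threshold 0.05). "Called" and "adjusted p" refer to this fit unless another is named. edgeR 4.0.16 (quasi-likelihood, TMM, windows with at least 10 reads) was run on the reads. Single means of 3 against 3 libraries were compared by exact permutation (scipy 1.17.1). Gene positions and TSSs (1 per gene) came from GENCODE M21 and promoter sequences from RefSeq. The members, the list of 39 genes and the markers were chosen with earlier results of these data known. Named were each member at its TSS window and its called or lowest-p window, the 3 network genes of lowest p and the 3 genes most like *Sall4* and *Esrrb*. Tried besides were log2 scales, the trend, quantile normalization, a mean of at least 1, DESeq2 size factors, the value at 0 reads as a covariate, the block, leaving out each library, and adjusted p under 0.1. Chosen after seeing the data were log2(RPM + 0.5) of the reads and leaving out libraries for gene means, and the second *Esrrb* promoter.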

Additional observations from a re-analysis of the deposited data

How the results depend on the processing

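The number of called windows depended on the fit, for the 65 windows as for all. Against 2 of 65 (5539 of all windows), 8 (19492) were called with the intensity trend, 5 (11514) with edgeR, 4 (10460) with edgeR and DESeq2 size factors, 3 (7503) with a mean of at least 1, 8 (17034) at adjusted p under 0.1, and 0 with log2(value + 1) (0), log2(value + 0.1) (0), quantile normalization (1) and the value at 0 reads as a covariate (0). In those 4 fits limma gave 19, 17, 25 and 16 of the 65 an unadjusted p under 0.05. Over all 544879 windows the counts were 73232, 57732, 90771 and 56906. Leaving out 1 library gave 0 to 10 (0 to 17979): 10 without cKO replicate 1, 1 without cKO replicate 3 and 0 without any other. In the fits with 0, 17 to 22 of the 65 had an unadjusted p under 0.05, against 54213 to 67065 of all 544879 windows. The cause was not tested.

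The 8 windows of the trend were 7 *Esrrb* gains and the *Sall4* TSS window, and the 5 of edgeR were *Esrrb* gains. Of the 39 network genes, limma called 1 with the trend, where 3.78% of all TSS windows were called. It called 2 at adjusted p under 0.1 and 1 with every transcript's TSS. When a library was left out it called 0 to 1, the 1 without cKO replicate 1, where 4.51% of all TSS windows were called. Quantile normalization moved the median difference of all windows from −0.10 to 0. Over 12 windows named in the text, 192 comparisons with an alternative gave the same direction and the same side of the threshold in 156, no longer passed in 20, newly passed in 8 and turned direction in 8.

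At TSS windows, *Prdm14* was 0.17 with the covariate and −0.70 to 0.0251 without 1 library, *Klf4* −0.58 to 0.17, and *Tfcp2l1* −0.43 to 0.87, with −0.26 (edgeR), −0.30 (size factors) and −0.59 (block). Without 1 library *Pou5f1* ran from −1.85 to −0.76 (the latter without cKO replicate 3), *Dppa4* from −1.22 to −0.43 and *Nanog* from 0.18 to 0.77. For means over a gene, on the scales log2(value + 1), log2(value + 0.1) and log2(RPM + 0.5), *Pou5f1* was 0.16, 0.27 and 0.12, *Sall4* 0.0125, 0.0909 and 0.14, and *Dppa4* 0.0457, 0.0767 and 0.19. *Tfcp2l1* was −0.0156 with quantile normalization. Without 1 library these means ran from −0.39 to 0.13 for *Pou5f1*, −0.12 to 0.14 for *Tfcp2l1* and −0.29 to 0.17 for *Dppa4*.

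The replicate number as a block called 12 of the 65 windows (8 gains, 4 losses), against 33433 of all windows (6.14%). It called 6 of the 39 network genes, against 9.2% of all TSS windows, and gave −1.71 at the *Sall4* TSS window (limma adjusted p = 0.0101). Only numbers 1 and 4 occur in both genotypes, and the deviations from the group means correlated at 0.319 and 0.0190. Pairs of unlike number had −0.227 to 0.133, so number 1 stood above them and number 4 did not. The numbers were not taken to pair the samples.

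With 9 to 55 reads at the *Esrrb* TSS window, counting error weighs on single windows. The mark was measured per 5 kb, which cannot place it within a promoter, and expression of these genes was not analysed here.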

Other observations

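The surroundings of the 9 genes were read in the 72 windows within 20 kb of either end that the deposited column did not assign to them. The TSS window of *Utf1*, reported above, is 1 of these. Limma called 0 of the 72 (lowest adjusted p = 0.0941), and 15 had an unadjusted p under 0.05, 10 with more and 5 with less H3K4me3 in cKO, where over all windows the shares were 6.82% and 8.12%. All cKO libraries were above all WT libraries in 13 and below in 4, against 9.88% and 9.95% of all windows. Next to *Dppa4* lies *Dppa2*, its partner in the same chromatin complex, whose TSS window (chromosome 16, 48300001 to 48305000) had 4.22, 4.40 and 4.70 normalized RPKM in cKO and 3.43, 4.24 and 4.2 in WT, which overlapped (difference 0.48, SE 0.367, limma adjusted p = 0.501). *Dppa2* was chosen for its place beside *Dppa4*.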
